A study of Sus scrofa with 20 samples.

Results

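Epicardial fat of Ossabaw pigs that had eaten the Western diet with atorvastatin (WD+S, 8 libraries) was compared with that of pigs on the Heart Healthy diet with no drug (HHD, 6 libraries). These 14 of the 20 libraries were chosen by their diet label alone, which reads Atherogenic + Statin for the first group and Heart Healthy for the second. The atherogenic label was taken to be the Western diet that the design describes as high in saturated fat, cholesterol and refined grain. The Heart Healthy diet is described as high in unsaturated fat, unrefined grain, fruits and vegetables. The groups thus differed in diet and in drug at once, and the share of each in a difference cannot be told apart. The other 6 libraries, from pigs given both the Heart Healthy diet and atorvastatin (HHD+S), entered the fit. They are described only by levels and by list medians over HHD, without a test. A group on the Western diet without the drug was not analysed here. Sex and age are not labelled per library.

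Epicardial fat lies between the heart muscle and its outer sheet, shares its small vessels with the muscle and is crossed by autonomic nerves and ganglia. Fat cells store triglyceride and release hormones such as leptin, and the fat also holds fibroblasts, vessels, immune cells and a mesothelial covering. Atorvastatin is a statin, a drug that lowers cholesterol synthesis, and cells short of sterol raise the genes of that pathway. Interferons are antiviral signals whose receptors switch on a large set of genes. The title of the series names interferon signalling.

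RNA was measured as reads per gene in 2 tables per library. The first has 22861 gene rows and held 3044179 to 6543337 reads in WD+S and 3489991 to 5228381 reads in HHD. Levels are counts scaled to library size by TMM (CPM), and changes are log2 fold changes of WD+S over HHD. Pool 1, a mark in the file names whose meaning is not stated, held 4 WD+S and 4 HHD libraries, and pool 2 held 4 WD+S and 2 HHD libraries. Fat cell genes marked the tissue in both groups. The fat cell hormone ADIPOQ averaged 2110.3 ± 543 RPKM in WD+S and 2609 ± 565 RPKM in HHD, and the fatty acid carrier FABP4 averaged 3857 ± 824 RPKM in WD+S and 4371 ± 1150.1 RPKM in HHD (SD, n = 8 and 6; RPKM, the authors' values scaled to gene length and depth).

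Several libraries stood apart. HHD replicates 3 and 5 carried reads of both XIST, an RNA of female cells, and Y-linked genes (1437 and 813 reads in replicate 3, 3396 and 147 in replicate 5, all in the second table). Of the rest, 4 of 8 WD+S libraries and 1 HHD library carried Y-linked reads with almost no XIST. HHD replicate 3 was also low in transcripts of ribosomal proteins and of the respiratory chain, and HHD replicate 2 was high in immune cell transcripts. The file names also carry a code and a letter whose meaning is not stated, and HHD replicate 2 was the only library of the 14 with its code and with the letter B, so the marks and the library cannot be told apart. WD+S replicate 1 had the lowest neural level of its group. Main results are therefore given also without HHD replicates 3 and 5 or with the Y-linked level as a term.

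No gene of 11366 passed an adjusted p of 0.05 in edgeR's quasi-likelihood test, where the smallest adjusted p stood at 0.216. An unadjusted p under 0.05 was reached by 1299 genes (11.4%), of which 859 were higher in WD+S (7.56% of all genes) and 440 lower (3.87%). Of these 1299 genes, 142 were higher and 34 lower by more than 1 on the log2 scale. DESeq2 called 80 of 10227 genes (0.782%), 72 higher (0.704%) and 8 lower (0.0782%), and limma-voom called 0, with 915 genes higher and 417 lower at an unadjusted p under 0.05. A fit of the 14 libraries alone called 1 gene (0.00893%), RSAD2. The count also moved with single libraries. Without WD+S replicate 1 edgeR called 22 genes (0.194%; 19 higher, 3 lower), and without HHD replicate 6 it called 14 (0.122%; 11 higher, 3 lower). No other single library left out gave a call. The second table, with 6685 genes tested, gave 0 calls in edgeR and 745 genes at an unadjusted p under 0.05 (11.1%). Without HHD replicates 3 and 5, edgeR again called 0, and of the 1426 genes at an unadjusted p under 0.05 (12.3%), 717 were higher (6.18%) and 709 lower (6.11%). With the Y-linked level as a term it called 0, with 1144 genes at an unadjusted p under 0.05 (10.1%). With the file name code as a term, chosen after the data were seen, it called 0, with 920 genes higher (8.09%) and 498 lower (4.38%) at an unadjusted p under 0.05.

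**Figure D1:**
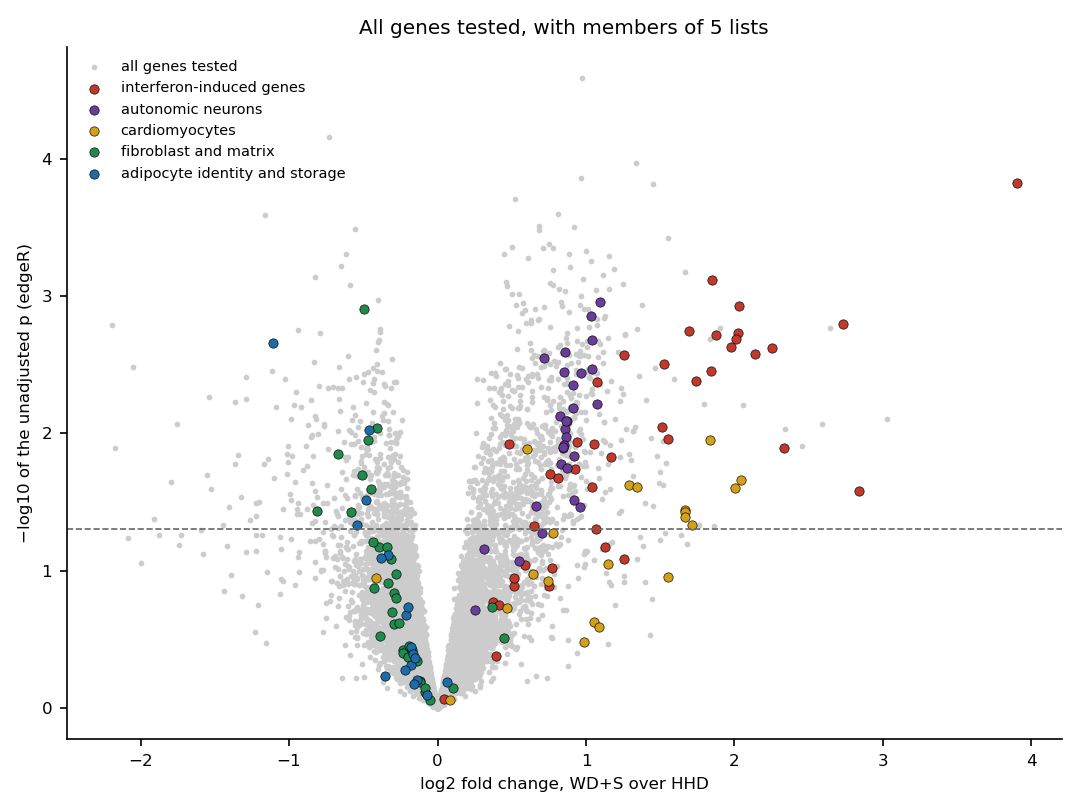
Each point is a gene: the horizontal axis gives the log2 fold change of WD+S over HHD and the vertical axis −log10 of the unadjusted edgeR p from the quasi-likelihood fit over all genes, with the dashed line at 0.05. Interferon-induced and autonomic neuron genes lie to the right, with RSAD2 farthest at 3.90, and fibroblast and fat cell genes lie mostly to the left.

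Whether the pools were separate runs or preparations is not stated. The fits within a pool also held the HHD+S libraries of that pool, which share in the estimate of spread. Within pool 1, edgeR called 14 of 11389 genes (0.123%), all higher in WD+S. Within pool 2, where only 2 HHD libraries stand, it called 0 of 11553. An unadjusted p under 0.05 was reached by 946 genes in pool 1 (8.31%) and by 576 in pool 2 (4.99%). A pool by group interaction term asks whether the change of WD+S over HHD differs between the pools. It gave 0 genes past edgeR's adjusted threshold and 305 at an unadjusted p under 0.05 (2.68%). Of the 1299 genes above, 1284 were tested in both pools and 1264 had the same sign there. Among all 11366 genes tested, 6501 had the same sign in both pools. The pools are parts of the libraries that gave the 1299 genes, so the count of 1264 is a description.

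Interferon-induced genes were higher in WD+S as a group and gave several of the larger fold changes. All 41 tested members of the list had a positive fold change, against 46.2% of all genes, with a median of 1.17 against -0.02. Of the 41, 30 had an unadjusted p under 0.05, against 7.56% of all genes. DESeq2 called 7 of them higher, against 0.704% of all genes in its test. At an unadjusted p under 0.05 the edgeR count was 25 of 41 without HHD replicates 3 and 5 (6.18% of all genes). It was 29 of 41 without WD+S replicate 1 (8.96%). With the file name code as a term it was 30 of 41 (8.09%), with a median of 1.00. RSAD2, which blocks the replication of many viruses and is also known as viperin (ENSSSCG00000008648), ranged from 8.35 to 139.9 CPM in WD+S (median 42.7), against 1.54 to 5.92 CPM in HHD (median 2.65). Every WD+S library lay above every HHD library, the lowest being WD+S replicate 6 and the highest WD+S replicate 8. Its log2 fold change 3.90 (SE 0.85, edgeR adjusted p = 0.22) became 4.10 within pool 1 (edgeR adjusted p = 5.9e-06) and 3.41 within pool 2. In the fit of the 14 libraries its edgeR adjusted p was 0.026.

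**Figure D2:**
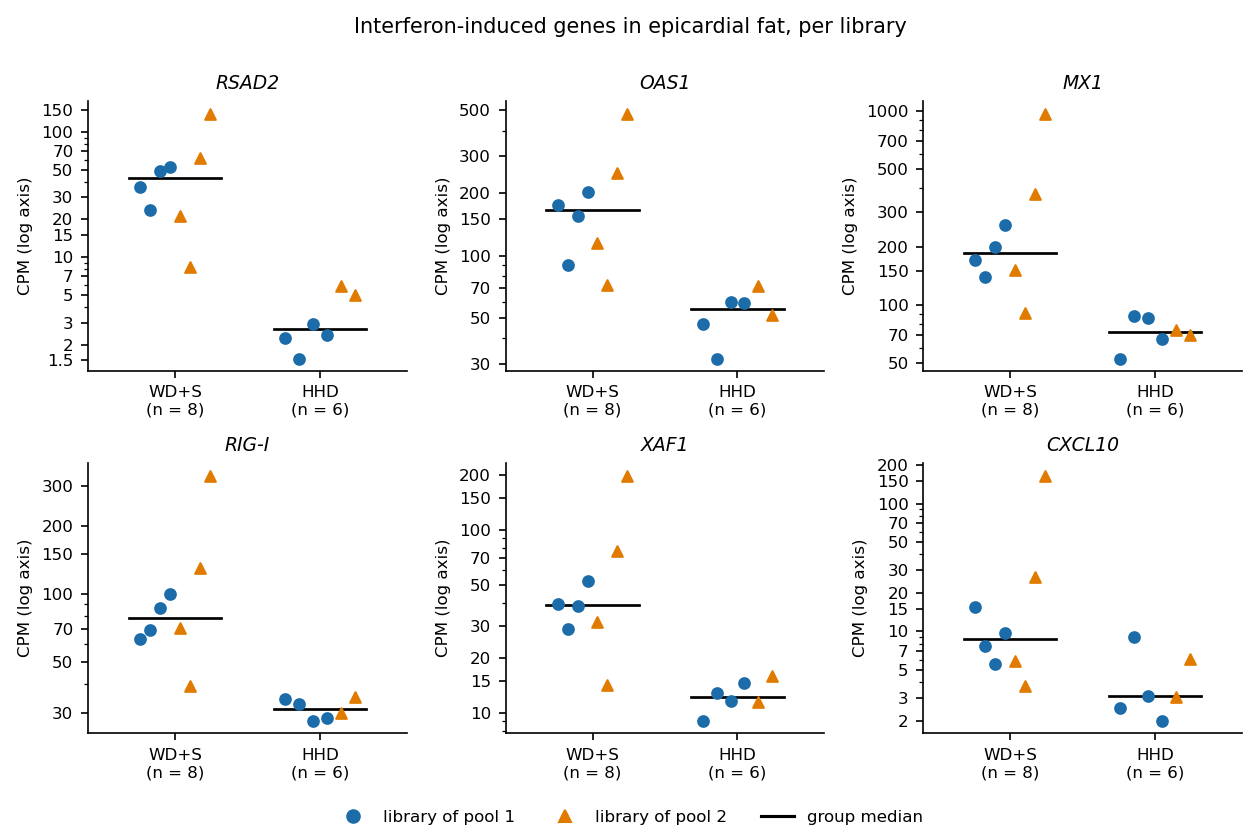
CPM (log axis) of 6 interferon-induced genes in every WD+S and HHD library, with circles for pool 1, triangles for pool 2 and a line at the group median. RSAD2, OAS1, MX1 and RIG-I do not overlap between the groups, and the highest WD+S value of each gene is that of replicate 8.

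Of the 41 members, 5 did not overlap between the groups, against 0.132% of all genes in this direction. They were RSAD2, OAS1, MX1, DHX58 and PARP14, and the groups overlapped for the other members. OAS1 (ENSSSCG00000009882), which makes the signal that activates RNase L, ranged from 72.1 to 483 CPM in WD+S (median 165), against 31.9 to 71.5 CPM in HHD (median 55.5). MX1, a GTPase that traps viral particles, ranged from 90.7 to 969 CPM in WD+S (median 185), against 52.9 to 87.7 CPM in HHD (median 72.2). The groups did not overlap for either gene, and WD+S replicate 8 was highest for both. Their log2 fold changes were 1.85 (SE 0.47) and 2.01 (SE 0.58), with an edgeR adjusted p of 0.22 for each. The RNA sensor listed as RIG-I in the first table ranged from 39.3 to 333 CPM in WD+S (median 78.7), against 27.6 to 35.05 CPM in HHD (median 31.3). The same sensor under its symbol DDX58 in the second table ranged from 56.2 to 469 CPM in WD+S (median 113), against 37.05 to 48.7 CPM in HHD (median 43.7). DHX58, a helicase that tunes RIG-I signalling, ranged from 22.8 to 212 CPM in WD+S (median 42.5), against 7.31 to 21.5 CPM in HHD (median 16.2). No WD+S library reached down to the HHD range for RIG-I and DHX58, which were named here because their groups do not overlap.

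The 14 genes that rose in pool 1 were RSAD2, CMPK2, IFI44, RIG-I, XAF1, PARP14, MX1, DDX60, OAS2, OAS1, IFIT3, IFIT1, IFIH1 and ZNFX1. Of these, 12 belong to the interferon-induced list, and RIG-I and ZNFX1 are the others. XAF1, a promoter of cell death, stood in pool 1 at 28.9 to 52.6 CPM in WD+S and 9.07 to 14.6 CPM in HHD, with a log2 fold change of 1.70 (edgeR adjusted p = 0.0071). In pool 2 it stood at 14.3 to 198 CPM in WD+S and 11.5 to 16.01 CPM in HHD. WD+S replicate 6 of pool 2, at 14.3 CPM, was the only WD+S library within the HHD range for this gene. DDX60, a helicase of the same response, rose in pool 1 with a log2 fold change of 2.42 (edgeR adjusted p = 0.026).

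Some members spread widely within WD+S. The chemokine CXCL10, which draws activated T cells, ranged from 3.73 to 165 CPM in WD+S (median 8.71), against 2.004 to 9.01 CPM in HHD (median 3.11), and WD+S replicate 8 alone exceeded 30 CPM. Without that library its log2 fold change was 1.37, against 2.84 with it. GBP1, a guanylate-binding protein, ranged from 31.4 to 718 CPM in WD+S (median 93.4), against 33.1 to 46.1 CPM in HHD (median 36.7), and WD+S replicate 6 lay below every HHD library.

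Across the whole list, the mean log2 CPM of the members lay between 4.41 and 6.98 in WD+S and between 4.09 and 4.40 in HHD. WD+S replicate 6 stood at 4.41, next to the highest HHD library. The list median was 1.00 in pool 1 and 1.40 in pool 2. It was 1.22 without HHD replicates 3 and 5 and 0.98 with the Y-linked level as a term, and it ran from 0.84 to 1.26 over the single libraries left out. In the second table all 48 tested members were positive, against 46.0% of its genes, with a median of 1.45, and 39 had an unadjusted p under 0.05 (7.42% of its genes). ISG15, a ubiquitin-like tag measured only there, ranged from 26.4 to 769 CPM in WD+S (median 97.4), against 12.1 to 28.98 CPM in HHD (median 20.1). IFI6, a small membrane protein, ranged from 142 to 2713 CPM in WD+S (median 332), against 62.3 to 127 CPM in HHD (median 88.00), without overlap. BST2, which tethers budding virus to the cell, ranged from 22.4 to 353 CPM in WD+S (median 71.4), against 21.9 to 65.1 CPM in HHD (median 25.5), with 4 of 8 WD+S libraries above all HHD libraries.

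Of 13 tested receptors and sensors, which stand upstream of the response, 8 were positive and 0 had an unadjusted p under 0.05, with a median of 0.12 and a range from -0.71 to 0.80. The receptor subunits IFNAR1 and IFNAR2, measured in the second table, differed by -0.06 (SE 0.11) and -0.09 (SE 0.15) on the log2 scale. TMEM173, the DNA-sensing adaptor STING, had a median of 59.9 CPM in WD+S (range 40.9 to 75.3) and of 49.6 CPM in HHD (range 34.01 to 63.7), and its ranges overlapped. JAK1, a kinase bound to the receptors, stood at 0.31 (SE 0.36) on the log2 scale over all libraries and at -0.27 in pool 2.

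Genes of MHC class I presentation, which show peptides to cytotoxic T cells, were positive in 10 of 10 tested members, with a median of 0.43 and 2 at an unadjusted p under 0.05, against 7.56% of all genes. The median was 0.41 without HHD replicates 3 and 5, where 0 members reached that p (6.18% of all genes). With the file name code as a term 5 did (8.09%). One of the rows for the light chain, B2M_2, ranged from 196 to 647 CPM in WD+S (median 267), against 105 to 248 CPM in HHD (median 177). In the second table the peptide transporter TAP1 ranged from 65.96 to 410.2 CPM in WD+S (median 107), against 46.4 to 76.4 CPM in HHD (median 65.2), and the class I regulator NLRC5 from 28.2 to 173 CPM in WD+S (median 57.00), against 23.6 to 44.4 CPM in HHD (median 30.2). TAP1 exceeded all HHD libraries in 7 of 8 WD+S libraries and NLRC5 in 6. Class II genes had 3 tested members, all positive and none at an unadjusted p under 0.05. Reads of these families may be split between similar genes, so their values are uncertain.

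Genes of autonomic neurons were higher in WD+S together, by close fold changes. All 29 tested members were positive, and 25 had an unadjusted p under 0.05, against 7.56% of all genes. The median log2 fold change was 0.86, with quartiles of 0.83 and 0.92. Without HHD replicates 3 and 5 the count was 19 of 29, and without WD+S replicate 1 it was 28, against 6.18% and 8.96% of all genes in these fits. DESeq2 called 3 of the 29 higher, CHGB, TUBB3 and KIF5A, against 0.704% of all genes in its test. In bulk tissue, more cells of a type and more RNA per cell cannot be told apart. TUBB3, the neuronal tubulin (ENSSSCG00000002639), ranged from 232 to 792 CPM in WD+S (median 614), against 159.7 to 389.8 CPM in HHD (median 293). WD+S replicate 1, at 232 CPM, was the only WD+S library within the HHD range. The log2 fold change 1.03 (SE 0.28, edgeR adjusted p = 0.22) was 1.16 in pool 1 and 0.73 in pool 2, and DESeq2 called it (adjusted p = 0.037). CHGB, a protein of secretory granules, ranged from 17.5 to 54.6 CPM in WD+S (median 45.2), against 9.62 to 30.6 CPM in HHD (median 16.3), with 6 of 8 WD+S libraries above all HHD libraries. RET, the receptor of neurotrophic factors of the GDNF family, ranged from 214 to 614 CPM in WD+S (median 513), against 128 to 405 CPM in HHD (median 250.3). Both pools showed WD+S above HHD for these 3 genes, but WD+S replicate 1 of pool 1 lay within the HHD range each time, and so did replicate 3 of pool 1 for CHGB and RET.

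**Figure D3:**
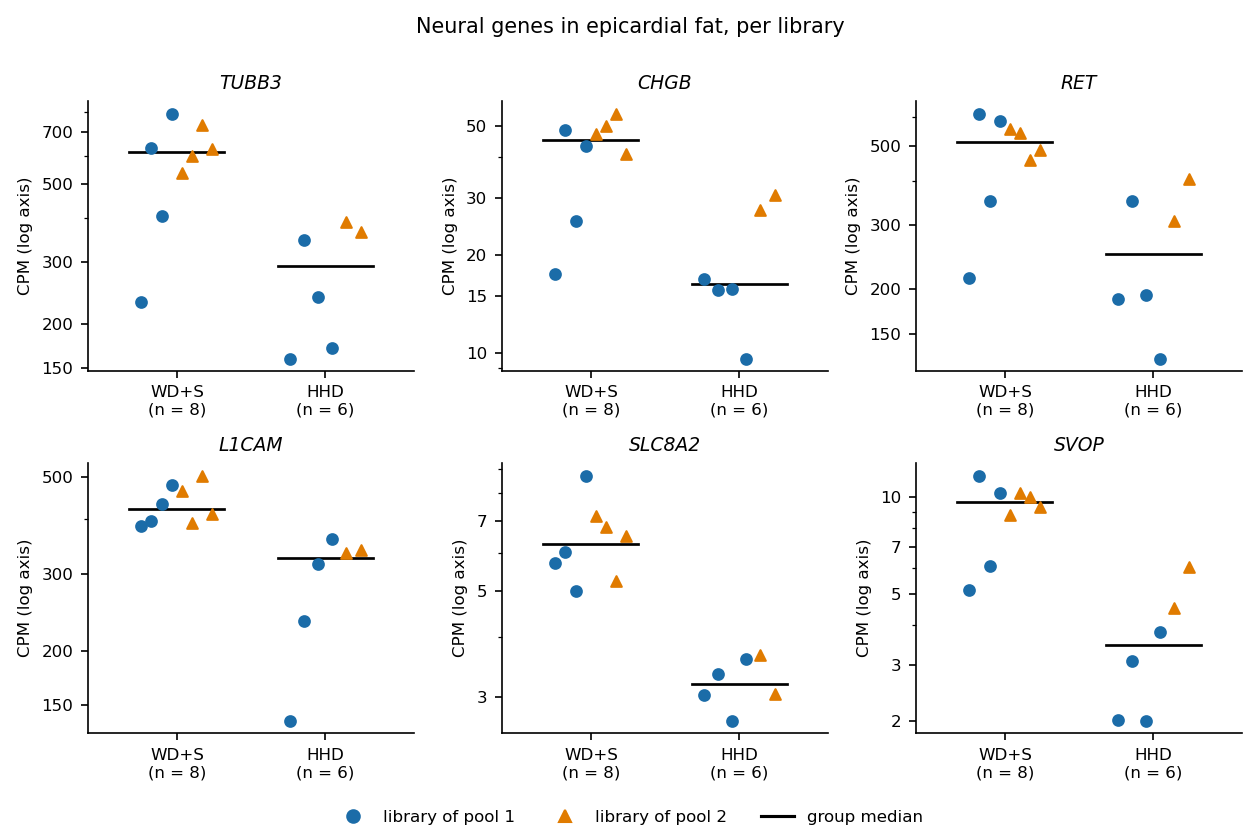
CPM (log axis) of 6 neural genes in every WD+S and HHD library, with circles for pool 1, triangles for pool 2 and a line at the group median. SLC8A2 and L1CAM do not overlap between the groups, and the lowest WD+S value of TUBB3, CHGB and RET is that of replicate 1.

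The members covered several sides of the neuron. For transmitters, the peptide NPY of sympathetic nerves ranged from 197 to 431 CPM in WD+S (median 312), against 87.8 to 304 CPM in HHD (median 143), and DBH, which makes noradrenaline, from 1.52 to 10.3 CPM in WD+S (median 3.69), against 0.891 to 3.38 CPM in HHD (median 2.66), on few reads. For cholinergic transmission, the acetylcholine-splitting enzyme ACHE ranged from 49.4 to 151 CPM in WD+S (median 124), against 29.5 to 82.8 CPM in HHD (median 62.2) and the ganglionic receptor subunit CHRNB4 from 9.34 to 25.5 CPM in WD+S (median 20.8), against 4.81 to 15.2 CPM in HHD (median 9.03). These 2 genes are not in the list and were named after their values were seen, and DESeq2 called both. Their lower WD+S values overlapped the upper HHD values. Axonal transport and structure were represented by the kinesin KIF5A, with a median of 116 CPM in WD+S (range 43.1 to 130.4) and of 48.96 CPM in HHD (range 28.1 to 75.9), and the filament PRPH, with a median of 381 CPM in WD+S (range 136 to 506) and of 199 CPM in HHD (range 107 to 262). PHOX2A, a regulator of autonomic fate, differed by 0.87 (SE 0.30) on the log2 scale. For the list, the mean log2 CPM of the members lay between 5.26 and 6.74 in WD+S and between 4.80 and 6.05 in HHD, and 6 of 8 WD+S libraries lay above all HHD libraries. Its median was 1.00 in pool 1 and 0.59 in pool 2. It was 0.83 without HHD replicates 3 and 5, 0.89 with the Y-linked term and 0.73 to 1.03 over the single libraries left out.

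Several of the genes with the smallest p are also known from neurons, although the neuron list does not hold them. SLC8A2, a sodium-calcium exchanger of nerve cells, had the smallest p of all genes (2.6e-05) and ranged from 5.003 to 8.71 CPM in WD+S (median 6.28), against 2.67 to 3.66 CPM in HHD (median 3.19), without overlap. SVOP, a synaptic vesicle protein, ranged from 5.12 to 11.7 CPM in WD+S (median 9.68), against 2.004 to 6.07 CPM in HHD (median 3.45), and RAMP1, a subunit of the receptor for the sensory peptide CGRP, from 43.7 to 95.2 CPM in WD+S (median 73.2), against 22.2 to 48.9 CPM in HHD (median 36.9). ADD2, a subunit of the membrane skeleton protein adducin, ranged from 6.93 to 18.7 CPM in WD+S (median 14.6), against 2.61 to 7.89 CPM in HHD (median 5.25). For SVOP, RAMP1 and ADD2 only WD+S replicate 1 lay within the HHD range. The other higher genes among the 15 with the smallest p and a symbol, besides RSAD2 and NCAM1, were BCAS4, RGMB, SEPT3, LRRC4C, FBLL1, CDH2, PLEKHA7, ASL and TMEM59L, with log2 fold changes from 0.50 to 1.55. SEPT3 is a septin of nerve endings, LRRC4C binds the axonal protein netrin-G1, CDH2 is N-cadherin, and ASL splits argininosuccinate to arginine. None of these 15 passed edgeR's adjusted threshold over all libraries. Without WD+S replicate 1, SLC8A2, NCAM1, RAMP1, SVOP, ADD2, TMEM59L, ASL, FBLL1, SEPT3 and BCAS4 passed. Named after their values were seen, the DESeq2 calls NRXN2 (a presynaptic adhesion protein), SYT5 (a vesicle calcium sensor) and KIF1A (a kinesin of axons) had log2 fold changes of 1.15, 1.00 and 0.66.

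Schwann cell genes, which mark the glia that wrap peripheral axons, were positive in 14 of 14 tested members, with a median of 0.50 and 8 at an unadjusted p under 0.05, against 7.56% of all genes. The count was 6 without HHD replicates 3 and 5, against 6.18% of all genes. The adhesion protein L1CAM (ENSSSCG00000012787) ranged from 387 to 504 CPM in WD+S (median 423), against 138 to 361 CPM in HHD (median 326), without overlap. NCAM1, another neural adhesion protein, ranged from 133 to 246 CPM in WD+S (median 211), against 117 to 165 CPM in HHD (median 139.9). Only WD+S replicate 1 lay within the HHD range of NCAM1. CDH19, a cadherin of glia, had a median of 43.4 CPM in WD+S (range 31.9 to 54.9) and of 24.8 CPM in HHD (range 20.3 to 41.7), and 5 of 8 WD+S libraries lay above all HHD libraries. The calcium-binding protein S100B had a median of 1152 CPM in WD+S (range 888 to 1667) and of 787 CPM in HHD (range 492 to 1273) in the second table. The list median was 0.60 in pool 1 and 0.24 in pool 2.

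Genes of heart muscle were higher in WD+S on the whole and varied widely between libraries. Of 21 tested cardiomyocyte genes 20 were positive, with a median of 1.15, and 10 had an unadjusted p under 0.05, against 7.56% of all genes. That count was 2 without WD+S replicate 5 (6.31% of all genes) and 3 without HHD replicate 2 (7.27%). It was 4 without HHD replicates 3 and 5 (6.18%) and 6 with the file name code as a term (8.09%). The summed level of the list ran from 462 to 7538 CPM in WD+S and from 209 to 1403 CPM in HHD. The ventricular and slow muscle myosin MYH7 ranged from 52.1 to 3062 CPM in WD+S (median 523), against 26.2 to 663 CPM in HHD (median 186), and the sarcomere protein ACTN2 from 39.7 to 429.6 CPM in WD+S (median 73.8), against 16.2 to 81.9 CPM in HHD (median 53.9). WD+S replicate 5 was highest for both, and WD+S replicate 8 was lowest for both among WD+S libraries. TNNC1, the calcium sensor of the thin filament, ranged from 20.6 to 489 CPM in WD+S (median 88.6), against 8.49 to 79.97 CPM in HHD (median 36.4), with 6 of 8 WD+S libraries above all HHD libraries. The list median was 0.55 in pool 1 and 2.62 in pool 2, where MYH7 stood at 52.1 to 3062 CPM in WD+S and 26.2 to 115 CPM in HHD. It was 0.70 without WD+S replicate 5. The atrial light chain MYL7 was at 0 in WD+S replicate 3 and reached 54.2 CPM in WD+S replicate 4, and the atrial myosin MYH6 ranged from 10.8 to 315 CPM in WD+S (median 34.4), against 1.80 to 183 CPM in HHD (median 24.3). The part of heart muscle cells in the neural and other differences was not tested.

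**Figure D4:**
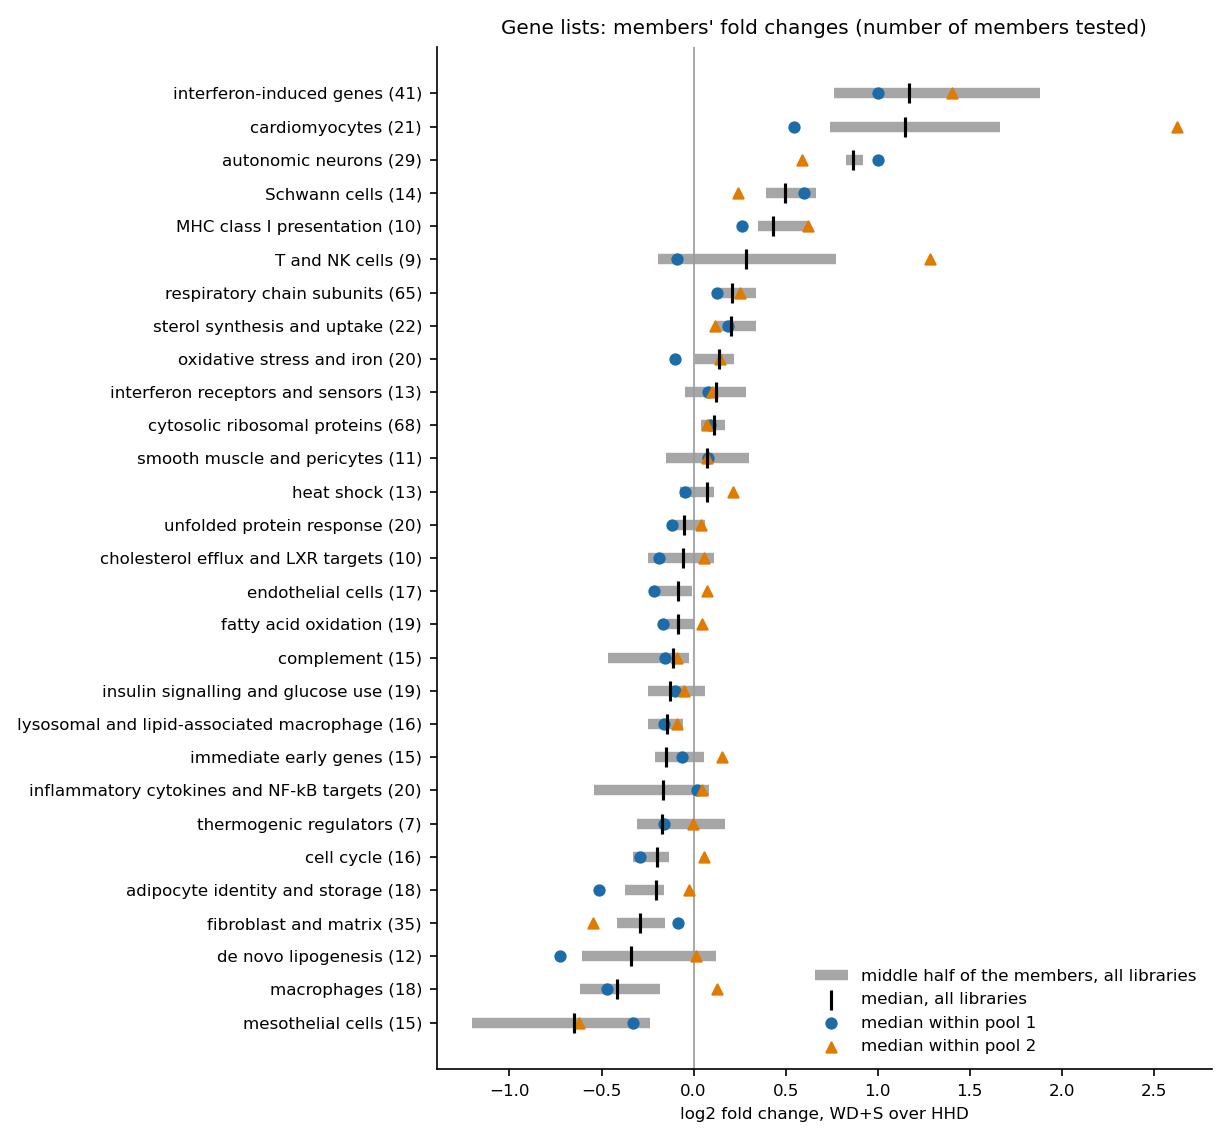
For each list with 5 or more tested genes, the grey bar spans the quartiles of the members' log2 fold changes of WD+S over HHD, the tick is their median, and the circle and triangle are the medians within pool 1 and pool 2. Lists above 0 in both pools include those of interferon-induced, neuron, Schwann cell, MHC class I, cardiomyocyte, sterol synthesis and respiratory chain genes. Lists below 0 in both include those of matrix, mesothelial, fat cell, insulin signalling, complement and lysosomal genes.

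Among genes of sterol handling, those of synthesis and uptake were positive in 18 of 22 tested members, with a median of 0.20 and 5 at an unadjusted p under 0.05, against 7.56% of all genes. The count was 2 without WD+S replicate 5 and 3 without HHD replicate 2, against 6.31% and 7.27% of all genes, and the median ran from 0.13 to 0.29 over the single libraries left out. HSD17B7, ACAT2 and TM7SF2, of this pathway, had log2 fold changes of 0.43 (SE 0.17), 0.45 (SE 0.18) and 0.36 (SE 0.16). HSD17B7 ranged from 34.9 to 63.7 CPM in WD+S (median 54.9), against 25.9 to 50.5 CPM in HHD (median 42.4), with 5 of 8 WD+S libraries above all HHD libraries. SQLE, which opens the sterol branch, ranged from 33.1 to 78.9 CPM in WD+S (median 62.4), against 37.5 to 86.9 CPM in HHD (median 51.9). WD+S replicate 1 was the lowest of the 14 libraries, and the other WD+S libraries lay within the HHD range. Without HHD replicates 3 and 5 the list median was 0.11, and 2 members had an unadjusted p under 0.05, against 6.18% of all genes. No member separated the groups fully, and none was called by edgeR or DESeq2.

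Genes that move cholesterol out of or through cells did not move as a group, and SCARB1 and NPC1 were lower in WD+S. SCARB1, the HDL receptor that exchanges cholesterol with the particle (ENSSSCG00000009759), had the smallest p of the lower genes and ranged from 50.8 to 82.5 CPM in WD+S (median 63.5), against 74.8 to 169 CPM in HHD (median 98.3). WD+S replicate 1 alone lay within the HHD range. Its log2 fold change -0.73 (SE 0.15, edgeR adjusted p = 0.22) was -0.76 in pool 1 and -0.61 in pool 2, and DESeq2 called it (adjusted p = 0.0096). Without HHD replicates 3 and 5 it was -0.49. NPC1, which exports cholesterol from lysosomes, ranged from 47.5 to 72.5 CPM in WD+S (median 59.8), against 68.5 to 94.8 CPM in HHD (median 75.1), with 7 of 8 WD+S libraries below all HHD libraries. ABCA1_1, a row with a copy number whose name is that of the cholesterol exporter ABCA1, ranged from 104 to 118 CPM in WD+S (median 108), against 44.1 to 120.2 CPM in HHD (median 69.6). The WD+S libraries lay close together and inside the wide HHD range. Of the 10 tested genes of efflux and LXR targets, 4 were positive, and the median was -0.06.

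Fat cell genes were mostly a little lower. Of 18 tested genes of fat cell identity and storage 17 were negative, with a median of -0.20, and 4 had an unadjusted p under 0.05, against 3.87% of all genes. The count was 2 without WD+S replicate 5 (3.58% of all genes). It was also 2 without HHD replicates 3 and 5 (6.11%), where 8 of the 18 were positive. It was 3 without WD+S replicate 1 (5.2%), 6 without HHD replicate 2 (3.22%) and 5 with the file name code as a term (4.38%). LEP, the satiety hormone leptin (ENSSSCG00000016588), ranged from 9.71 to 31.3 CPM in WD+S (median 11.5), against 15.2 to 55.1 CPM in HHD (median 26.2). Of the WD+S libraries 7 lay below every HHD library, and WD+S replicate 1 stood at 31.3 CPM. The log2 fold change -1.11 (SE 0.32, edgeR adjusted p = 0.22) became -1.38 without that library, where it passed (edgeR adjusted p = 0.049). PPARG, the master regulator of fat cells, ranged from 90.3 to 145 CPM in WD+S (median 126), against 114 to 279.8 CPM in HHD (median 160.2), and CEBPA, its partner, from 39.4 to 76.2 CPM in WD+S (median 63.2), against 48.6 to 141 CPM in HHD (median 72.2). The groups overlapped for both. GPR120, a receptor for long-chain fatty acids, ranged from 20.6 to 38.2 CPM in WD+S (median 24.9), against 29.2 to 61.7 CPM in HHD (median 40.5), with 6 of 8 WD+S libraries below all HHD libraries. DESeq2 called GPR120 (adjusted p = 0.042). The list median was -0.52 in pool 1, -0.02 in pool 2 and -0.07 without HHD replicates 3 and 5.

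**Figure D5:**
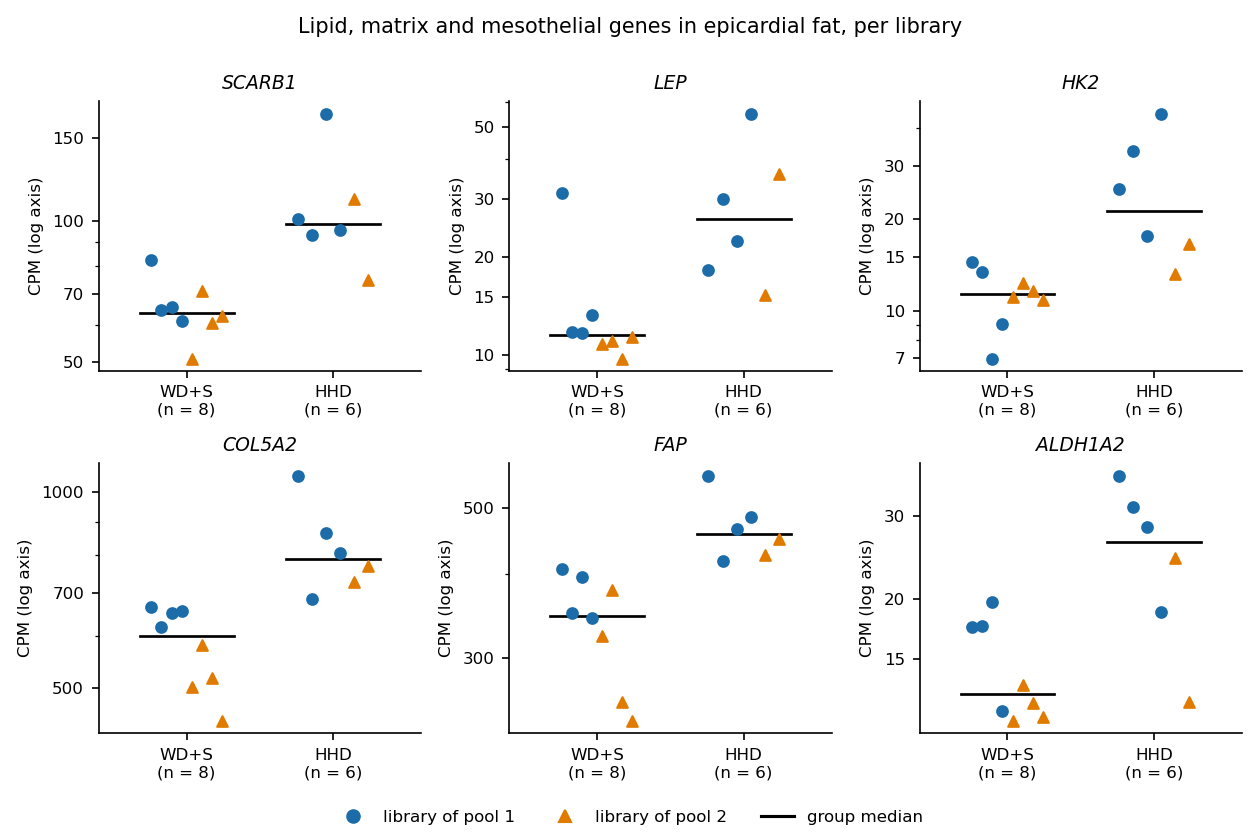
CPM (log axis) of 6 genes with negative fold changes in every WD+S and HHD library, with circles for pool 1, triangles for pool 2 and a line at the group median. COL5A2 and FAP do not overlap between the groups, and WD+S replicate 1 is the highest WD+S library for SCARB1, LEP and HK2.

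Genes of fatty acid synthesis were lower in WD+S in pool 1 and near 0 in their median in pool 2, a difference that was not tested for the list. ME1, which supplies NADPH, stood in pool 1 at 49.4 to 104 CPM in WD+S and 115 to 322 CPM in HHD, without overlap, and in pool 2 at 94.9 to 243 CPM in WD+S and 95.2 to 211 CPM in HHD, with overlap. Its log2 fold change was -1.58 in pool 1, -0.04 in pool 2 and -0.83 (SE 0.35) in all. The difference between the pools had an edgeR interaction p of 0.022 for ME1, and an adjusted p of 1. The desaturase SCD ranged from 631 to 2391 CPM in WD+S (median 1475), against 912 to 3862 CPM in HHD (median 2773), and the elongase ELOVL6 from 8.13 to 39.2 CPM in WD+S (median 22.2), against 23.6 to 53.3 CPM in HHD (median 40.5). The 12 tested genes of lipogenesis had a median of -0.34, of -0.73 in pool 1 and of 0.02 in pool 2. Over the single libraries left out it ran from -0.49 to -0.0674, the last without HHD replicate 4. At an unadjusted p under 0.05, 1 of the 12 was lower (3.87% of all genes), and 5 were with the file name code as a term (4.38%). HK2, the hexokinase of insulin-responsive tissue, ranged from 6.95 to 14.5 CPM in WD+S (median 11.4), against 13.2 to 44.7 CPM in HHD (median 21.4), with a log2 fold change of -1.47 in pool 1 and -0.38 in pool 2. DESeq2 called HK2 (adjusted p = 0.027). Among 19 tested fatty acid oxidation genes the median was -0.09, and only ACADL, a dehydrogenase of long chains, had an unadjusted p under 0.05 (-0.34).

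Genes of fibroblasts and matrix were negative in 32 of 35 tested members, with a median of -0.29 and 8 at an unadjusted p under 0.05, against 3.87% of all genes. The count was 4 of 35 without HHD replicates 3 and 5, against 6.11% of all genes. It was 6 without WD+S replicate 5 (3.58%) and 12 of 34 without WD+S replicate 1 (5.2%). Without HHD replicate 2 it was 9 (3.22%), and with the file name code as a term 11 (4.38%). The fibrillar collagen chain COL5A2 (ENSSSCG00000016035) ranged from 445 to 667 CPM in WD+S (median 601), against 684 to 1059 CPM in HHD (median 788). FAP, a protease of activated fibroblasts (ENSSSCG00000015896), ranged from 243 to 406 CPM in WD+S (median 347), against 418 to 558 CPM in HHD (median 458). Neither gene overlapped between the groups, which held for 0.0616% of all genes in this direction. The major chain COL3A1 ranged from 4789 to 14895 CPM in WD+S (median 9782), against 11999 to 18439 CPM in HHD (median 14538), and the matricellular protein POSTN from 98.8 to 267 CPM in WD+S (median 164), against 150.3 to 523 CPM in HHD (median 216). In pool 2 COL3A1 stood at 4789 to 8784 CPM in WD+S, against 11999 to 12713 CPM in HHD. The list median was -0.09 in pool 1 and -0.55 in pool 2. MMP2, a gelatinase measured in the second table, had a log2 fold change of -0.45 (SE 0.21).

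Mesothelial genes, which mark the outer covering, were negative in 13 of 15 tested members, with a median of -0.65 and 4 at an unadjusted p under 0.05, against 3.87% of all genes. Without HHD replicate 2 the median was -0.38 and the count 1 (3.22% of all genes). With the file name code as a term the median was -0.36 and the count 2 (4.38%). The count was 2 without WD+S replicate 5 (3.58%) and 7 without WD+S replicate 1 (5.2%). ALDH1A2, which makes retinoic acid, ranged from 11.1 to 19.7 CPM in WD+S (median 12.6), against 12.1 to 36.5 CPM in HHD (median 26.5), and DESeq2 called it (adjusted p = 0.042). It also passed in edgeR without HHD replicate 6 (adjusted p = 0.039). UPK1B, a membrane plaque protein, ranged from 0.217 to 37.7 CPM in WD+S (median 3.13), against 3.01 to 97.00 CPM in HHD (median 15.3), and the transcription factor BNC1 from 0.217 to 6.93 CPM in WD+S, against 0.200 to 17.8 CPM in HHD. UPK1B and BNC1 spread widely within each group, and the groups overlapped.

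Genes of vessels and immune cells varied with single libraries. Of 17 endothelial genes 4 were positive, with a median of -0.08. PECAM1, a junction protein, and CLDN5, a tight junction protein, differed by -0.27 (SE 0.11) and 0.49 (SE 0.22) on the log2 scale. Of 11 tested genes of smooth muscle and pericytes 7 were positive, with a median of 0.07. At an unadjusted p under 0.05, 1 of the 11 was higher, against 7.56% of all genes. MCAM, of pericytes and smooth muscle, ranged from 351 to 512 CPM in WD+S (median 469), against 271 to 429.8 CPM in HHD (median 344), with 6 of 8 WD+S libraries above all HHD libraries. The 18 macrophage genes had a median of -0.41, which became 0.02 without HHD replicate 2, and 0.13 in pool 2. Of the 18, 1 was lower at an unadjusted p under 0.05 (3.87% of all genes), and 7 were without WD+S replicate 1 (5.2%). The count was 4 without HHD replicates 3 and 5 (6.11%), 0 without HHD replicate 2 (3.22%) and 0 without WD+S replicate 5 (3.58%). CR2, a complement receptor of B cells, ranged from 2.28 to 40.97 CPM in WD+S (median 6.26), against 9.66 to 121 CPM in HHD (median 18.03), and HHD replicate 2 held the highest value. The CR2 log2 fold change of -1.76 was -0.84 without that library. Of 9 tested T and NK cell genes 6 were positive, with a median of 0.28, of -0.09 in pool 1 and of 1.28 in pool 2. At an unadjusted p under 0.05, 0 of the 9 were higher (7.56% of all genes) and 1 was lower (3.87%). CD4, of helper T cells and macrophages, stood at few reads, with a median of 1.51 CPM in WD+S (range 0.796 to 3.92) and of 3.60 CPM in HHD (range 1.38 to 14.4). The chemokine CCL5 ranged from 2.22 to 23.9 CPM in WD+S (median 6.97), against 3.12 to 5.15 CPM in HHD (median 4.74), and 6 of 8 WD+S libraries lay above all HHD libraries. The adhesion protein VCAM1 ranged from 99.2 to 229 CPM in WD+S (median 109), against 119 to 534 CPM in HHD (median 137), and 6 of 8 WD+S libraries lay below all HHD libraries. The VCAM1 log2 fold change of -0.68 was -0.11 without HHD replicate 2, which held the highest value. Complement genes had a median of -0.11 over 15 members (0.01 without HHD replicate 2), and C7, of the membrane attack complex, ranged from 495 to 1458 CPM in WD+S (median 834), against 769 to 2373 CPM in HHD (median 1127). Inflammatory cytokines and NF-kB targets had a median of -0.16 over 20 members, of which VCAM1 alone had an unadjusted p under 0.05.

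Subunits of the respiratory chain were positive in 60 of 65 tested members, with a median of 0.21 and 17 at an unadjusted p under 0.05, against 7.56% of all genes. The count was 9 without HHD replicates 3 and 5 (6.18% of all genes) and 26 without WD+S replicate 1 (8.96%). NDUFB1, of complex I, ranged from 13.6 to 19.9 CPM in WD+S (median 16.3), against 7.79 to 14.1 CPM in HHD (median 12.6), and NDUFB11, of the same complex, from 56.3 to 88.8 CPM in WD+S (median 74.98), against 35.9 to 66.7 CPM in HHD (median 56.7). HHD replicate 3 held the lowest value of both. Without HHD replicates 3 and 5 the list median was 0.10. For the 68 cytosolic ribosomal protein genes the median was 0.11, and -0.01 without these libraries. The unfolded protein response had a median of -0.05 over 20 members, the cell cycle of -0.20 over 16 and immediate early genes of -0.15 over 15, with none at an unadjusted p under 0.05. The median of all genes was -0.02. Of the 16 cell cycle genes 15 were negative, but without HHD replicate 2 10 were positive and the median was 0.13. The median of the immediate early genes was 0.09 without HHD replicate 3. Of 20 genes of oxidative stress and iron 15 were positive, with a median of 0.14 (-0.10 in pool 1). At an unadjusted p under 0.05, 2 of the 20 were higher, against 7.56% of all genes. Without HHD replicates 3 and 5, 11 of the 20 were positive, with a median of 0.05, and 1 was higher at that p (6.18%). SRXN1, which repairs oxidised peroxiredoxins, ranged from 12.4 to 24.8 CPM in WD+S (median 20.6), against 9.22 to 19.8 CPM in HHD (median 12.05), with 5 of 8 WD+S libraries above all HHD libraries. The small heat shock protein HSPB8 ranged from 73.9 to 154 CPM in WD+S (median 121), against 47.5 to 101 CPM in HHD (median 71.8), likewise with 5 of 8.

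Every WD+S library lay on one side of every HHD library for 22 of 11366 genes (0.194%), 15 above (0.132%) and 7 below (0.0616%). The 15 were RSAD2, OAS1, MX1, RIG-I, DHX58, PARP14, ZNFX1, UBP, SLC8A2, L1CAM, CDH10, TIMM17B, MYEOV2, VDAC5P and ENSSSCG00000014565. UBP ranged from 20.2 to 221 CPM in WD+S (median 45.3), against 9.32 to 20.04 CPM in HHD (median 19.3), and the ID-only gene ENSSSCG00000014565 from 81.1 to 384 CPM in WD+S (median 125), against 49.4 to 79.5 CPM in HHD (median 59.9). TIMM17B, of the mitochondrial import channel, ranged from 23.9 to 30.3 CPM in WD+S (median 28.4), against 13.1 to 23.7 CPM in HHD (median 21.5). The 7 were COL5A2, FAP, ABCC1, NOL10, SF3B3, ARFGAP3 and GTF2H1. ABCC1, an exporter of drugs and leukotrienes, ranged from 17.3 to 21.99 CPM in WD+S (median 18.5), against 22.4 to 46.1 CPM in HHD (median 24.96). GTF2H1, of the general transcription factor TFIIH, ranged from 50.6 to 54.5 CPM in WD+S (median 52.6), against 54.9 to 67.01 CPM in HHD (median 57.4), a narrow gap with an unadjusted p of 0.038.

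Further lower genes among those with the smallest p and a symbol were CDC42EP3_1, CLMP, PTN, SETD8, TEX9 and SMARCD2. CLMP, an adhesion protein found in fat cells, ranged from 155 to 267 CPM in WD+S (median 196), against 220.3 to 394 CPM in HHD (median 276), with 6 of 8 WD+S libraries below all HHD libraries. PTN, a growth factor, ranged from 2.172 to 27.7 CPM in WD+S (median 8.90), against 7.45 to 147 CPM in HHD (median 11.8), and its log2 fold change was -2.19, -2.10 in pool 1, -0.67 in pool 2 and -1.40 without HHD replicate 1. SETD8, a histone methyltransferase, and SMARCD2, a chromatin remodeller subunit, each differed by -0.39 (SE 0.11) on the log2 scale.

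Levels and list medians in HHD+S, which shares the diet of HHD and the drug of WD+S, are given as a description, since both comparisons share HHD libraries. RSAD2 stood at 5.79 to 127 CPM in HHD+S (median 7.85), where the WD+S median was 42.7 and the HHD median 2.65. In HHD+S replicates 5 and 6 it stood at 127 and 120.1 CPM, and in the other 4 at no more than 8.25 CPM. OAS1 stood at 435 and 456 CPM in the same pair and at 66.6 to 111 CPM in the other 4. TUBB3 stood at 180.0 to 551 CPM (median 283), where the WD+S median was 614 and the HHD median 293. SCARB1 stood at 74.01 to 121 CPM (median 95.8), where the WD+S median was 63.5 and the HHD median 98.3. COL5A2 stood at 379 to 754 CPM (median 576), where the WD+S median was 601 and the HHD median 788. The autonomic neuron list had a median log2 fold change of 0.05 for HHD+S over HHD, the Schwann cell list of 0.39 and the matrix list of -0.36. For WD+S over HHD these medians were 0.86, 0.50 and -0.29. The median of the interferon-induced list was 1.505 for HHD+S over HHD, where it was 1.17 for WD+S over HHD. HHD+S replicates 5 and 6, the only HHD+S libraries of pool 2, had list levels of 6.81 and 6.94 on the mean log2 scale. The other 4 stood at 4.34 to 4.61. The group median of this level was 4.57 in HHD+S, against 5.25 in WD+S and 4.35 in HHD.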

How the data were processed

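Poly(A) RNA of epicardial fat was sequenced after TruSeq RNA v2 library preparation, a kit that does not mark strand, from RNA with a quality number above 7, per the labels' protocols. Base calls were made with bcl2fastq 2.17.1.14 and the build was Sscrofa10.2, per the submitters' processing notes. No source used here names the aligner or counter. Files deposited by the authors hold unique exon read counts per gene in the first table and unique gene read counts with RPKM values in the second, per the file headers. Overlapping and near-identical genes may share or lose reads, and 2891 rows carry copy numbers in their names. Names were added to 890 ID rows from the RefSeq table of another build, and 5211 rows have an ID only.

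edgeR 4.0.16 in R 4.3.3 fitted the counts of all 20 libraries by group, with TMM scaling, a filter on low counts (minimum count 10, total 15), the quasi-likelihood test and Benjamini-Hochberg adjustment over all genes tested at a threshold of 0.05. A gene's SE is its log2 fold change over the square root of F. List levels are means of log2(CPM + 0.5). limma 3.58.1 (voom) and DESeq2 1.42.0 were alternatives, and adjusted p-values that DESeq2 left empty were not counted. On simulated data for 11366 genes, of which 200 were changed, 184 were called, 14 of them falsely. Of the genes changed by 1 on the log2 scale 72% were recovered, and of those changed by 2, 98%. The simulated counts were drawn from the dispersion of the fit alone, with no pool effect and no library standing apart. These shares thus do not measure what the test recovers in the real libraries, which spread more widely. The fit shares one estimate of spread over the 3 groups. Nothing in the labels says that libraries are from separate animals beyond their numbers, so p-values measure the spread between these samples. Genes were named as the 15 higher and 15 lower with the smallest p and a symbol, up to 5 members of a list with the smallest p, its defining markers, and genes stated as chosen after their values were seen. A few genes that this rule names are not reported here. The genes that do not overlap between groups, the DESeq2 calls and the pool 1 calls were named after their values were seen. The comparison and the lists were chosen with earlier results of these data known, and the lists were described, not tested. Alternatives were another size factor, no filter, each library left out, the pools, the pool and Y-linked terms, a term for the file name code (added after the data were seen), and the second table.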

Additional observations from a re-analysis of the deposited data

Results flagged for a closer look

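Of 342 tests of a group for a library that stands far from the others, 31 passed Dixon's criterion, where chance gives about 1 in 20. WD+S replicate 1 accounts for 9, HHD replicates 2 and 3 for 6 each and HHD replicate 1 for 4. The values are given without a cause, and CPM is the unit for genes.

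WD+S replicate 1 was far below the other WD+S libraries for the neural genes KIF5A (43.1), ADD2 (6.93), NCAM1 (133) and NRXN2 (11.7), and for SQLE (33.1). Its sterol list level was also lowest (4.91 on the mean log2 scale). The same library was far above the others for LEP (31.3), ITGAM (71.4) and VCAM1 (229). HHD replicate 2 was far above the other HHD libraries for VSIG4 (63.6) and VCAM1 (534), and for the list levels of macrophages (6.62), the cell cycle (4.22) and interferon receptors and sensors (4.67). It was far below them for the list level of insulin signalling (5.81). HHD replicate 3 was far below the other HHD libraries for PSME2 (29.4), ABCG1 (4.68), TIMM17B (13.1) and ATP5I_1 (3.34), and for the list levels of ribosomal proteins (8.16) and the respiratory chain (5.49).

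HHD replicate 1 was far below the other HHD libraries for DHX58 (7.31), UBP (9.32) and TM7SF2 (25.4) and far above them for GTF2H1 (67.0). Single flags fell on FBLL1 in HHD replicate 5 (4.23, high), CDH19 in HHD replicate 6 (41.7, high), ZNFX1 in WD+S replicate 8 (513, high), FCER1A in WD+S replicate 5 (0, low) and ARFGAP3 in WD+S replicate 4 (111, low). The ribosomal protein list level of WD+S replicate 7 (9.27) was far above that of the other WD+S libraries.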

How the results depend on the processing

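The count of genes past the edgeR threshold was 0 in the fit reported and under most alternatives. It was 80 by DESeq2, 14 in pool 1 and 1 with only the 2 groups in the fit, and ran from 0 to 22 over single libraries left out (22 without WD+S replicate 1, 14 without HHD replicate 6). Of 138 genes named, 3526 values under alternatives were computed, of which 3447 kept their direction and side of the threshold, 76 passed it and 3 changed sign. Those that changed sign were JAK1 (-0.27 in pool 2 and -0.0233 in the second table) and SQLE (-0.13 in pool 2). List medians that moved by more than the spread were those of cholesterol efflux in pool 1 (-0.19), oxidative stress in pool 1 (-0.10) and heat shock in pool 1 (-0.0445) and pool 2 (0.21). In pool 2, those of cardiomyocytes (2.62), T and NK cells (1.28), erythroid cells (0.54) and B and plasma cells (0.0587) moved too, the last from -1.46 to -0.18 over single libraries left out and to -0.22 with the file name code as a term. The cause was not tested. The counts of genes at an unadjusted p under 0.05 ran from 667 to 1057 higher and from 351 to 589 lower over single libraries left out, and were 717 higher and 709 lower without HHD replicates 3 and 5. No paired analysis was possible because the replicate numbers follow accession order and pair no samples. Depth limits genes of few reads, such as DBH, CD4 and UPK1B.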
